A study of Mus musculus with 8 samples.

Results

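The aminoacyl-tRNA synthetase genes described here are 36 of the 21915 genes counted in the mRNA-seq table of the study, 20 that encode cytosolic enzymes and 16 that encode mitochondrial ones. They were chosen by name as a gene family, with earlier results of these data known, and Lars2 was singled out by its measured count in 1 library, so its values are given as a description without a test. Hepa 1-6 cells, a mouse hepatoma line that the labels call Hepa 1.6, were sequenced in 2 control and 2 Kap1 knock-down (Kap1 KD) samples. Per the methods, cells received a lentiviral pLKO vector encoding an shRNA against Kap1, or the empty vector, and were selected with puromycin. The labels speak of a control shRNA plasmid and of transduction 5 days before collection. KAP1, encoded by Trim28, is a corepressor recruited to DNA by zinc-finger proteins. In each group 1 sample carries the number 2 in its label and the other carries none. The unnumbered sample was taken as replicate 1, so any pairing of samples by number is partly inferred. Small RNA was counted in 1 control and 1 Kap1 KD library of the same line and in 1 wild type and 1 Kap1 Knock-out (KO) library of primary mouse hepatocytes, which are used here for tRNA only.

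Aminoacyl-tRNA synthetases join each amino acid to its cognate tRNA, the step that fixes the meaning of the genetic code. Most amino acids have one enzyme for cytosolic translation and another, encoded by a separate nuclear gene, for the mitochondrial ribosome, while Gars and Kars serve both compartments. Several cytosolic enzymes assemble with scaffold proteins into the multi-synthetase complex. Many cytosolic synthetase genes are known targets of ATF4, the transcription factor of the amino acid response.

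The 4 mRNA libraries held between 41566888 and 53605115 counts, and 14142 genes passed the filter on low counts. All 36 synthetase genes passed it. Trim28 had 456 and 575 TMM-normalized CPM (counts scaled for library size and composition) in control replicates 1 and 2, and 106 and 78.9 in Kap1 KD replicates 1 and 2. Its fitted log2 difference was -2.48 ± 0.25 (SE), with an edgeR quasi-likelihood adjusted p of 0.9999 in the fit without a replicate term, so the groups were separated in the direction of their labels but not by that test. Of 8 hepatocyte markers 6 were tested, with Alb at 441 to 1580 CPM and Ttr and Serpina1a near 0. All 6 tested markers were lower in the Kap1 KD sample of both pairs of same-numbered samples, as were 5392 of the 14142 tested genes. In both Kap1 KD samples 5 of the 6 lay below both controls, beside 10.6% of tested genes. The summed level of the 8 markers was 2439 and 2053 CPM in control and 1697 and 1068 after Kap1 KD. The fitted log2 differences were largest for Apoa1 (-1.35), Apob (-1.21) and Alb (-0.89) between groups. Between replicate numbers they were largest for Alb (-0.88), Hnf4a (0.84) and Apoa1 (0.43). Apoa1 had only 18 and 21 counts in control and 5 and 8 after Kap1 KD, so its values lie near the floor. The 3 leukocyte markers, led by Cd68 and Cd74, summed to 4.08 to 8.89 CPM, the 3 endothelial markers, of which only Pecam1 was tested, to 0.14 to 0.28, and the 3 stellate or fibroblast markers, Col1a1 and Col3a1 among them, to 1.15 to 1.83. Ptprc, Cdh5, Kdr and Pdgfrb, which define those cells, were near 0. The cholangiocyte markers Krt7, Krt19 and Epcam summed to 102 and 49.1 CPM in control replicates 1 and 2 and to 80.7 and 33.9 in Kap1 KD replicates 1 and 2. The part of these shifts in the results below was not tested, and in bulk samples a change in the share of a cell state and a change of RNA per cell cannot be told apart.

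With Lars2 left out, the summed cytosolic synthetase mRNA was far above the mitochondrial sum in every library. With Lars2 included, the mitochondrial sum was the higher one in Kap1 KD replicate 2, at 7334 CPM against 5429. In control cells the median level of the 20 cytosolic genes was 59.5 CPM per kb of annotated exon and that of the 16 mitochondrial genes was 8.19, and on the same scale the median over the tested genes was 5.63. Since annotated exons include rarely used ones, the medians were also taken per kb of coding sequence, a length chosen after the data were seen, which gave 102 and 12.7. The choice of length moves single genes further than that, so the order of levels is given on both scales where it differs.

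Among cytosolic genes Gars, the glycyl enzyme, had the highest level on both scales. Per kb of exon it stood at 316 and 301 CPM per kb in control replicates 1 and 2 and 314 and 266 in Kap1 KD replicates 1 and 2. Kars, the lysyl enzyme, followed with 139, 174, 158 and 189 in the same order, and Nars, the asparaginyl enzyme, with 135, 123, 139 and 123. Gars stood above both in each library. Per kb of coding sequence Sars, the seryl enzyme, came after Gars, with a control mean of 224 CPM ± 46.5 (SD, n = 2), and Nars, at 203 ± 13.2, lay above Kars, at 188 ± 30.3, so the order of these 3 is not separated. At the other end per kb of exon stood Yars, the tyrosyl enzyme, at 12.4, 15.5, 14.6 and 17.4 CPM, and Qars, the glutaminyl enzyme, at 20.3, 26.8, 24.4 and 34.2. Per kb of coding sequence Lars, the leucyl enzyme, was the lowest instead, with a control mean of 38.0 CPM against 48.8 for Yars. Farsa and Farsb encode the α and β subunits of one phenylalanyl enzyme. Farsb was the higher per kb of exon, at 77.5, 72.2, 80.8 and 69.5 CPM beside 21.5, 28.4, 24.7 and 32.6 for Farsa. Per kb of coding sequence the gap shrank, with 107 and 99.7 CPM for Farsb and 64.0 and 84.4 for Farsa in the controls, and Farsa was level with Farsb in Kap1 KD replicate 2, at 96.8 and 95.9.

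Of the mitochondrial genes, Lars2 is left for a section of its own. The other 15 had control means from 2.40 (Nars2) to 12.6 CPM per kb of exon (Tars2), and per kb of coding sequence from 7.06 (Nars2) to 30.2 (Iars2). Tars2, the threonyl enzyme, stood at 11.3, 14.0, 11.4 and 13.9 CPM per kb in control replicates 1 and 2 and Kap1 KD replicates 1 and 2. Nars2 stood at 2.47, 2.34, 2.40 and 2.20, and Wars2, the tryptophanyl enzyme, at 2.54, 2.56, 2.61 and 2.91, so these lowest neighbours lay within about the spread of a single gene over the libraries. Between them and Tars2 the control means of Iars2, Aars2, Yars2, Hars2, Mars2, Sars2 and Cars2 ran from 8.17 to 10.3 CPM per kb, with SDs from 0.21 to 2.70 (n = 2), and their order within that range is not separated by the replicates. Nor does it hold per kb of coding sequence, on which Wars2 rose to 14.0, above Mars2, Cars2, Aars2 and Sars2.

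**Figure D1:**
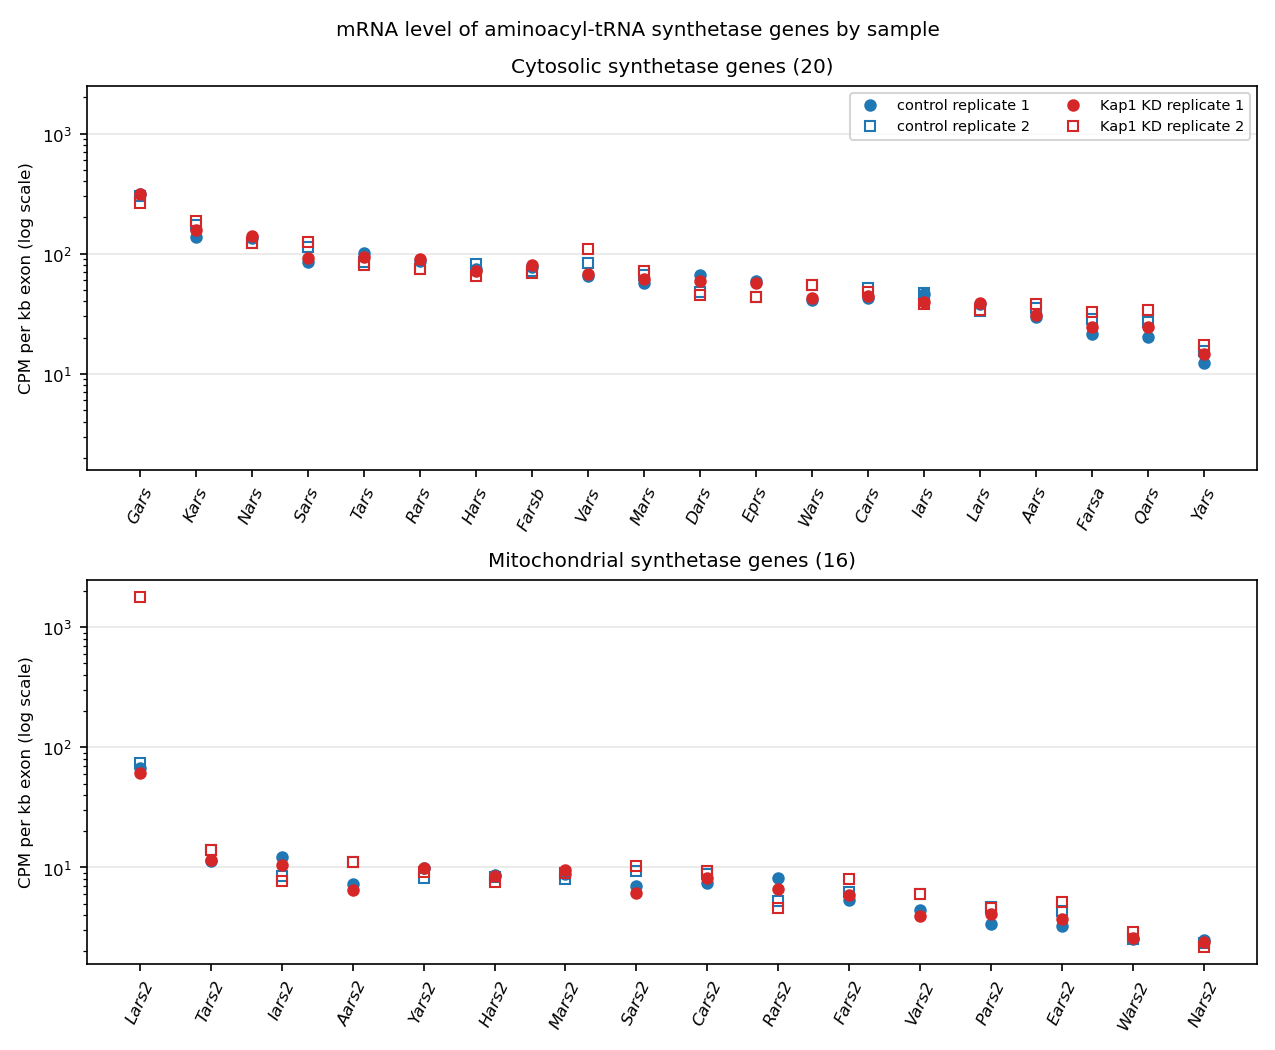
Level of each synthetase mRNA in each library, as TMM-normalized CPM per kb of annotated exon on a log axis. The upper panel holds the 20 cytosolic and the lower panel the 16 mitochondrial genes, sorted by their control mean, and filled symbols are replicates 1 and open symbols replicates 2. Apart from Lars2, no mitochondrial gene has a control mean above 12.6 and no cytosolic gene one below 13.9.

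The cytosolic and mitochondrial enzymes for one amino acid could be set side by side in 17 pairs of genes over 16 amino acids. Outside leucine, the cytosolic mRNA was the higher one per length in all 4 libraries in 16 of 16 pairs. This held per kb of exon and per kb of coding sequence. The median ratio per kb of exon was 9.83 and 9.58 in the control and 11.1 and 8.52 in the Kap1 KD libraries, and per kb of coding sequence 8.21 and 7.97 against 7.71 and 7.54. Asparagine had the widest gap, with Nars at 54.9 and 52.8 times the level of Nars2 in control and 58.0 and 55.9 times in Kap1 KD samples, and per kb of coding sequence at 28.1 to 30.9 times over the 4 libraries. The narrowest gap depended on the length used. Per kb of exon it was that of tyrosine, with Yars at 1.24, 1.88, 1.47 and 1.89 times Yars2, and per kb of coding sequence that of isoleucine, with Iars at 1.82, 2.63, 1.79 and 2.31 times Iars2, beside 1.96, 2.98, 2.33 and 2.99 for tyrosine. For glutamate, Eprs, the bifunctional glutamyl-prolyl enzyme, stood at 18.1 and 15.5 times Ears2 in the unnumbered samples and at 9.97 and 8.45 times in the samples numbered 2. It was lower in the samples numbered 2 within each group and in the Kap1 KD sample within each pair. Leucine was the reverse of the others, with Lars at 0.57 and 0.45 times Lars2 in the controls, at 0.63 times in the unnumbered Kap1 KD library and at 0.0189 times in the one numbered 2. Part of the 3′ UTR of Lars2 aligns elsewhere in mm9, as described below. The part of that stretch in the Lars2 counts, and so in this reversal, was not tested in any library.

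**Figure D2:**
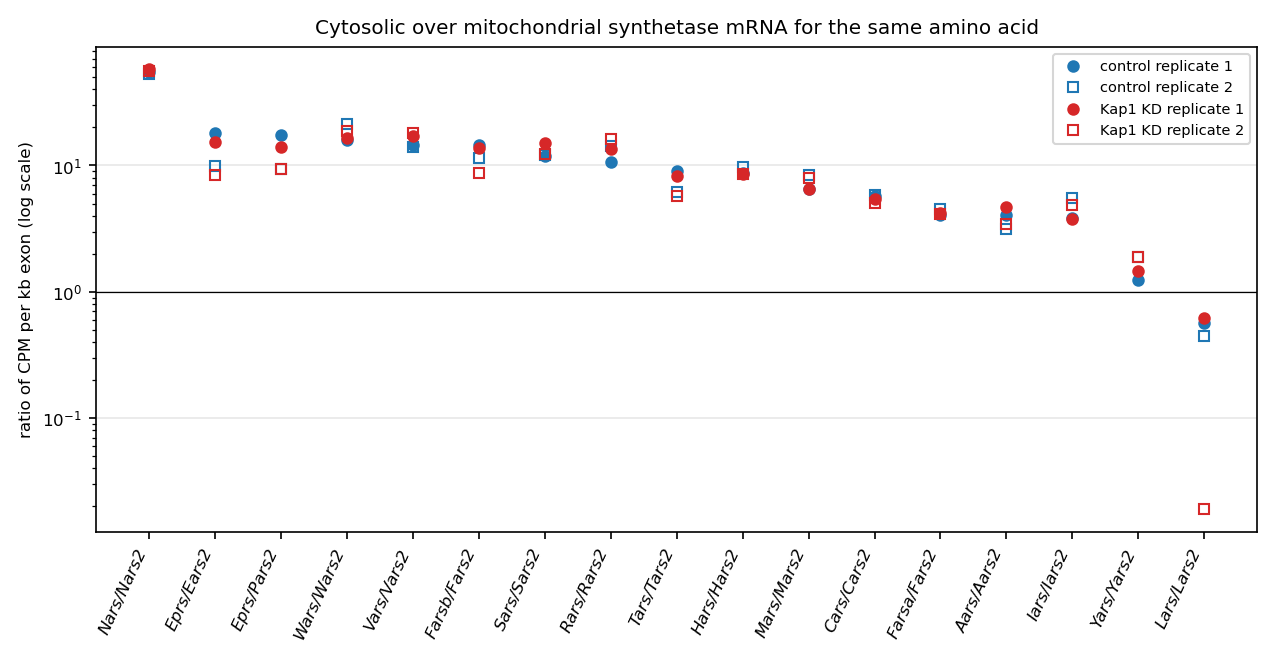
Ratio of the cytosolic to the mitochondrial synthetase mRNA for the same amino acid, from CPM per kb of exon, on a log axis. Each point is 1 library, and the line marks equal levels. All pairs but Lars and Lars2 lie above the line in all 4 libraries.

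No synthetase mRNA passed the test between Kap1 KD and control, and neither did any other gene. edgeR's quasi-likelihood test without a replicate term, requiring a 1.5-fold change and an adjusted p under 0.05 (Benjamini-Hochberg), called 0 of 36 members beside 0% of the 14142 tested genes. At an unadjusted p under 0.05 it listed 0 members and 185 genes of the whole table, and DESeq2 called 0 members and 3 genes. The paper, which used DESeq2 at the same thresholds and names no replicate term, reports both upregulated and downregulated genes for this knock-down. Trim28 itself was not called by this test, so the absence of calls does not show that the synthetase mRNAs did not differ. The test has 2 samples a group, and without a replicate term the differences between replicate numbers count as spread within groups. The fit with a replicate term is given in the closing section. An exact permutation test of a single gene, which was not the test used, allows no p below 0.333 in this design. The median log2 difference, Kap1 KD minus control, was 0.02 for cytosolic and 0.03 for mitochondrial genes (0.00 without Lars2), beside -0.02 for all tested genes. Members of the multi-synthetase complex (8 genes) had a median of 0.02, cytosolic genes outside it (12 genes) one of 0.03. The 18 class I genes, whose enzymes share a Rossmann fold, had a median of 0.08 and the 17 class II genes one of 0.00, with Eprs left out since it holds a domain of each class. The summed CPM of the cytosolic genes was 5073 and 5301 in control and 5185 and 5429 after Kap1 KD, and that of the mitochondrial genes without Lars2 was 419.8 and 423 against 404 and 428. Both sums overlapped between groups.

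In 4 members the groups did not overlap. Mars2 and Wars2 lay higher in both Kap1 KD samples than in either control, 2 of 36 members beside 9.69% of tested genes. Iars and Hars lay lower in both, again 2 of 36, beside 10.6% of tested genes. Neither share exceeded the background. Iars, the cytosolic isoleucyl enzyme, had 245 and 248 CPM in control and 208 and 199 after Kap1 KD, a fitted log2 difference of -0.28 ± 0.16 (SE). Its controls differed by less than the gap between the groups. Its coding sequence, however, has 2 near-identical alignments elsewhere in mm9, the longest 1678 bases, which makes its count uncertain. Whether these alignments are separate copies was not examined. Hars, the histidyl enzyme, had 149 and 161 CPM in control and 144 and 130.1 after Kap1 KD, and the nearest samples of the groups were closer than those within a group. Hars also shares 9.81% of its exonic bases with Hars2, which is read from the opposite strand. Mars2, the mitochondrial methionyl enzyme, had 25.5 and 23.0 CPM in control and 27.4 and 25.8 after Kap1 KD. Wars2 had 15.1 and 15.2 against 15.5 and 17.3, with most of its difference coming from 1 sample. Neither reached a fitted log2 difference of 0.2.

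The largest fitted increases outside Lars2 belonged to Qars, Vars and Fars2, and in each the groups overlapped. Qars had 126 and 166 CPM in control and 151 and 212 after Kap1 KD, and its log2 difference was 0.32 ± 0.26 (SE). Vars, the valyl enzyme, had 364 and 467 against 382 and 610.2, with 0.26 ± 0.29. Fars2, the mitochondrial phenylalanyl enzyme, had 11.3 and 13.4 against 12.5 and 16.9, with 0.25 ± 0.26. In all 3 genes the unnumbered Kap1 KD sample lay between the controls and the one numbered 2 lay above them. Ears2, the mitochondrial glutamyl enzyme, showed the same arrangement, with 16.9 and 22.5 CPM in control, 19.0 and 26.5 after Kap1 KD and a log2 difference of 0.21 ± 0.28. The largest decrease beside Iars was that of Rars2, the mitochondrial arginyl enzyme, which had 22.6 and 14.6 CPM in control and 18.4 and 12.8 after Kap1 KD, a log2 difference of -0.25 ± 0.33. Here too the groups overlapped. The remaining 29 members had fitted log2 differences between -0.18 (Hars) and 0.20 (Farsa).

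Samples of the same number were taken as a pair. Of the 36 members, 15 were higher in the Kap1 KD sample of both pairs, 12 were lower in both and 9 differed in sign. Of the 14142 tested genes, 4644 were higher in both, 5392 were lower in both and 4106 differed in sign. Log2 changes per pair were taken on CPM plus 0.1. The cytosolic genes had a median change of 0.06 in the unnumbered pair and 0.01 in the pair numbered 2, and the mitochondrial genes one of -0.01 and 0.04, beside -0.02 and -0.00 for all tested genes. Qars changed by 0.27 and 0.35, Farsa by 0.20 in each pair, Kars by 0.19 and 0.11, Sars by 0.13 and 0.14, and Mars by 0.12 and 0.10. In other cytosolic genes the pairs were further apart, with Vars at 0.07 and 0.39, Hars at -0.05 and -0.31 and Gars at -0.01 and -0.18. Iars changed by -0.24 and -0.32, and Rars2 by -0.30 and -0.19. Sars2, the mitochondrial seryl enzyme, changed by -0.19 in one pair and 0.13 in the other, and Cars, the cysteinyl enzyme, by 0.05 and -0.12. Apart from Lars2, no member moved by more than 0.39 in either pair, the value of Vars in the pair numbered 2.

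**Figure D3:**
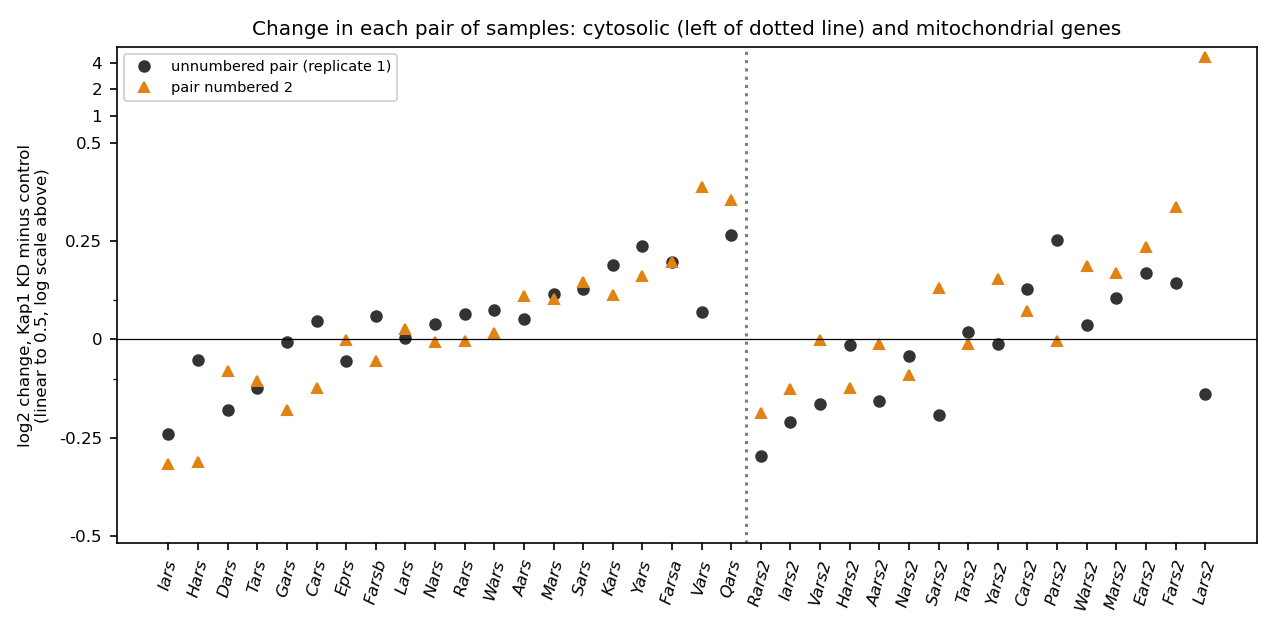
Log2 change of each of the 36 genes in each pair of same-numbered samples, Kap1 KD minus control. Circles are the unnumbered pair and triangles the pair numbered 2; the axis is linear up to 0.5 and logarithmic above. Every gene except Lars2 lies within 0.39 of 0 in both pairs, and Lars2 lies at -0.14 and 4.59.

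The synthetase mRNAs differed more between the replicate numbers than between the groups. With the group as a term, edgeR's quasi-likelihood test of the samples numbered 2 against the unnumbered ones called 1 of the 35 members without Lars2 higher, Aars2, beside 9.08% of tested genes, and 0 lower beside 17.4%. At an adjusted p under 0.05 without the fold threshold, 18 of the 35 were higher and 11 lower, beside 31.5% and 32.1% of tested genes. Aars2, the mitochondrial alanyl enzyme, had 24.4 and 21.9 CPM in the unnumbered control and Kap1 KD samples and 37.2 and 36.9 in those numbered 2, a log2 difference of 0.68 ± 0.08 (SE) with an edgeR adjusted p of 1.8e-15. Sars2 followed with 13.2 and 11.5 CPM against 17.4 and 19.0, a log2 difference of 0.56 ± 0.10 and an edgeR adjusted p of 1.6e-07. Vars had 364 and 382 CPM against 467 and 610.2, and Vars2, its mitochondrial counterpart, 24.2 and 21.6 against 32.6 and 32.6. On the other side stood Rars2, with 22.6 and 18.4 CPM in the unnumbered samples and 14.6 and 12.8 in those numbered 2, a log2 difference of -0.58 ± 0.10 and an edgeR adjusted p of 1.7e-08. Iars2 (-0.47 ± 0.08), Dars (-0.43 ± 0.07), the aspartyl enzyme, and Eprs (-0.42 ± 0.05) were also lower in the samples numbered 2 at an edgeR adjusted p under 0.05. Iars2 shares 22.7% of its exonic bases with Rab3gap2 on the opposite strand, and no other member shares more than 10.8% with another annotated gene.

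These differences between replicate numbers were ordered by base composition. Over the 35 members without Lars2, Spearman's correlation of the log2 difference between replicate numbers with the GC content of the exons was 0.84, a description across genes measured in the same 4 libraries. Over 14118 tested genes it was 0.66. With exonic length it was 0.13 over the members and -0.13 over the tested genes. All 12 members with the highest GC content, from 51.9% to 60.3%, were higher in the samples numbered 2, with a median log2 difference of 0.36. In the 12 with the lowest, from 41.7% to 47.5%, 11 were lower and 1, Wars2, was higher, with a median of -0.20. The 11 members between them were split, 6 higher and 5 lower. Aars2, Sars2 and Vars, the highest at 60.0% to 60.3% GC, were among the most raised, and Dars, Rars2 and Rars, at 41.7% to 43.8%, were all lower. The difference between Kap1 KD and control followed GC content less closely, with a correlation of 0.36 over the members and 0.33 over the tested genes. What made the libraries differ by base composition was not tested.

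**Figure D4:**
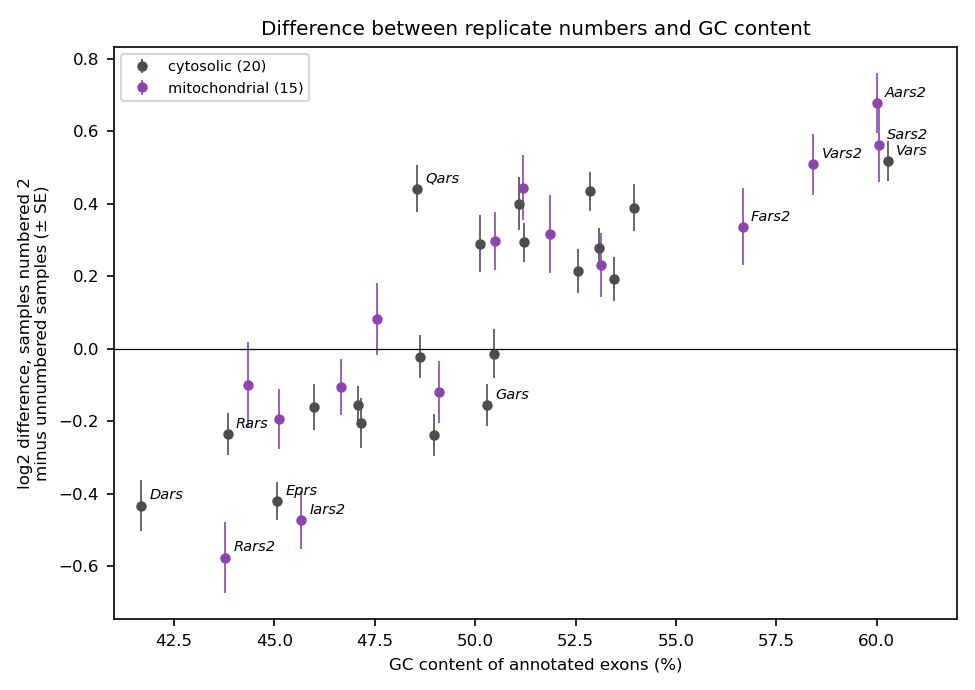
Log2 difference between samples numbered 2 and unnumbered samples, with the group as a term, against the GC content of annotated exons, for 35 synthetase genes without Lars2. Points are fitted values with SE bars, grey for the 20 cytosolic and purple for the 15 mitochondrial genes. The points climb from -0.58 (Rars2) at 43.8% GC to 0.68 (Aars2) at 60.0%.

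Lars2 encodes the mitochondrial leucyl enzyme (ENSMUSG00000035202, mm9 chromosome 9, 123276058 to 123371782, plus strand, 21 exons). The controls held 14625 (replicate 1) and 14175 (replicate 2) of its counts, Kap1 KD replicate 1 held 10162 and Kap1 KD replicate 2 held 323041. As a share of the library this was 0.0273% (95% Wilson interval 0.0268 to 0.0277) and 0.0284% (0.0279 to 0.0289) for the controls, 0.0244% (0.0240 to 0.0249) for the unnumbered Kap1 KD library and 0.652% (0.649 to 0.654) for the one numbered 2. Such intervals hold only the error of counting within 1 library. No molecular identifiers marked the reads, so repeated copies of a molecule could not be told apart and that error may be larger. In normalized terms the last library, at 6905 CPM, stood 24.2-fold above control replicate 2, 28.9-fold above Kap1 KD replicate 1 and 26.3-fold above control replicate 1. The other 3 libraries lay within 1.20-fold of each other. Lars2 ranked 620, 609 and 716 among the tested genes by CPM in those 3 libraries and 4 in Kap1 KD replicate 2. Among the synthetase genes it ranked 9, 9 and 11 per length, and 1 in Kap1 KD replicate 2. The summed mitochondrial synthetase CPM was thereby 682, 708 and 642 in those 3 libraries and 7334 in the last. The fitted log2 difference of Lars2 between groups, 3.70 ± 1.5 (SE), describes 1 library out of 4. Without that library it was -0.19.

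Genes of a similar pattern were few. Of 11515 genes with at least 50 counts in a sample and a log2 change under 0.5 in size in the unnumbered pair, 8 changed by more than 3 in the pair numbered 2, and Lars2 was one of them. The 5 closest by the size of that change, besides Lars2, were short non-coding loci. The mmu-mir-2134-4 locus on chromosome 9 had 234 and 178 counts in the controls, 151 in the unnumbered Kap1 KD library and 6271 in the one numbered 2. A locus of the same name on chromosome 13 had 150, 126 and 117 against 4119. AC115697.1 had 483, 474 and 323 against 12921, a 7SK locus on chromosome 15 had 6, 13 and 7 against 443, and AC099934.1 had 15, 11 and 13 against 352. In each the last library was the high one and the other 3 lay together. Past these 5 stood AY036118, an annotated pseudogene, with 1025, 1039 and 795 counts against 13920, and Gm15564, with 15, 20 and 9 against 215. Both are named because the count of 8 includes them.

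**Figure D5:**
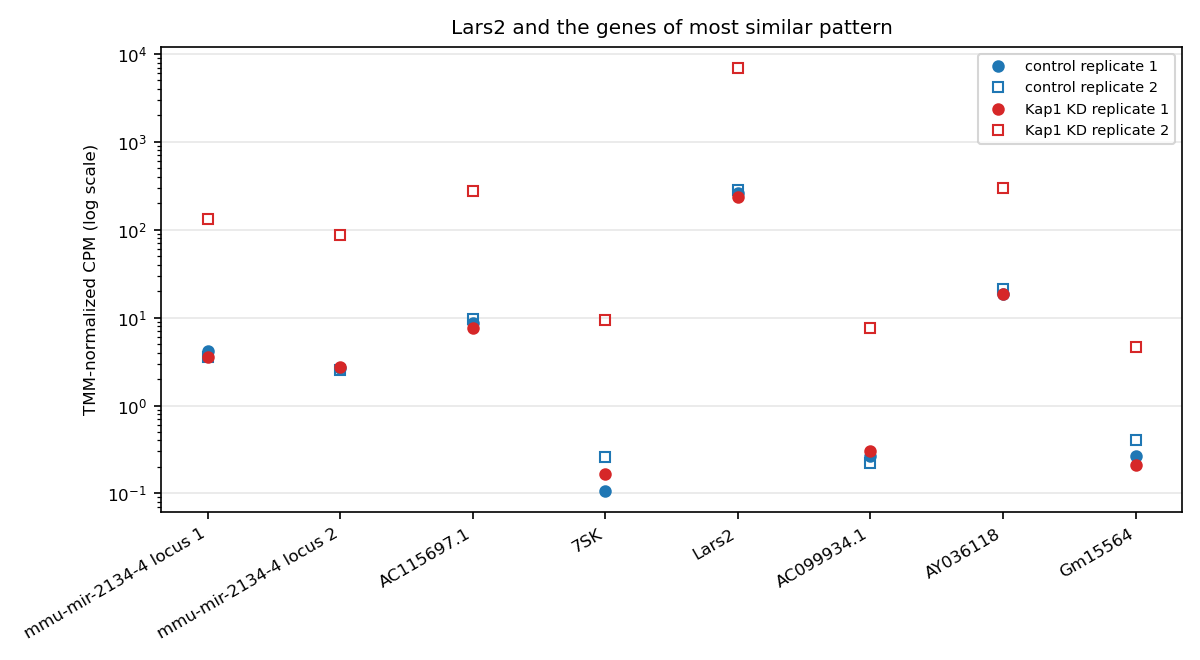
TMM-normalized CPM of Lars2 and of the 7 other genes with a log2 change above 3 in the pair numbered 2 and under 0.5 in the other pair, on a log axis. Blue symbols are control and red symbols Kap1 KD libraries, and open squares are replicates 2. In all 8 genes Kap1 KD replicate 2 stands apart and the other 3 libraries lie together.

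The last exon of Lars2, 1166 bases from 123370617 to 123371782, holds the 3′ UTR from 123370797 on. Megablast gave 21 alignments of a stretch of 398 bases within that UTR, 123370910 to 123371307, to other places in mm9. They covered 50 to 244 bases at 82.2% to 98.8% identity. One of these places lies in an exon of Gm15564, one of the 8 genes above, and another begins 23 bases past the end of AC115697.1. A further gene, AA474408, had matched exonic sequence in adjoining alignments, which may be parts of the same place. This gene had 39 and 9 counts without and 24 and 15 with Kap1 KD and did not share the pattern. At a minimum of 200 bases and 95% identity, 1 of the 21 alignments was left, and the coding sequence of Lars2 had 0 alignments elsewhere at that minimum. This stretch is known to resemble large-subunit ribosomal RNA. Ribosomal RNA was not analysed here, the authors' aligner reported 1 alignment per read, and the deposited counts do not say where in the gene the reads fell. The part of this stretch in the count of Kap1 KD replicate 2, or in those of the other libraries, was not tested.

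Promoters of the synthetase genes were searched for TGATGNAA on both strands, the composite element at which ATF4 and C/EBP proteins are known to bind. RefSeq windows of GRCm38.p6, 250 bases before to 50 after a start site, were matched by symbol for 27 of the 36 members. Cars, Hars, Lars, Nars, Rars, Vars, Wars, Hars2 and Pars2 had none. The element was present in 5 of the 27 genes (18.5%) and in 1219 of 27025 genes with a window (4.51%). All 5 were cytosolic. Their windows are printed because they hold the element, and run in the direction of transcription. Capitals mark the element or its reverse complement.
Aars (chr8:111033592-111033891, plus strand): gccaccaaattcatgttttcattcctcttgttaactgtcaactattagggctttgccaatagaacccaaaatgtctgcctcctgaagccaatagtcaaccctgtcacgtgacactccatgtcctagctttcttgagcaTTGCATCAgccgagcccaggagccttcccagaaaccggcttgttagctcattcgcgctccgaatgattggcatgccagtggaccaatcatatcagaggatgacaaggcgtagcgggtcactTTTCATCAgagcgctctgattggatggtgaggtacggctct
Gars (chr6:55037751-55038050, plus strand): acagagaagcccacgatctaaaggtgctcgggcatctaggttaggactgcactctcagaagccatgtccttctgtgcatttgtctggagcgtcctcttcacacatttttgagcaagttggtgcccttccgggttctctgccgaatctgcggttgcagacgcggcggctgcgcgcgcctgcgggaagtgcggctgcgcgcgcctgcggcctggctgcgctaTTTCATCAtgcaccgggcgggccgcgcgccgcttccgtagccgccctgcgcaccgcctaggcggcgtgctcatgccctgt
Iars (chr13:49681880-49682179, plus strand): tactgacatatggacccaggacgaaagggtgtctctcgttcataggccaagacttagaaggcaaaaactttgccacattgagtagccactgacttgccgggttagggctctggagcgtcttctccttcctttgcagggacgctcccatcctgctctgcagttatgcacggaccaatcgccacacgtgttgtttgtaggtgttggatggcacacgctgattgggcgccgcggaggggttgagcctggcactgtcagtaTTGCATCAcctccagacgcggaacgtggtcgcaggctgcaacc
Tars (chr15:11399609-11399908, minus strand): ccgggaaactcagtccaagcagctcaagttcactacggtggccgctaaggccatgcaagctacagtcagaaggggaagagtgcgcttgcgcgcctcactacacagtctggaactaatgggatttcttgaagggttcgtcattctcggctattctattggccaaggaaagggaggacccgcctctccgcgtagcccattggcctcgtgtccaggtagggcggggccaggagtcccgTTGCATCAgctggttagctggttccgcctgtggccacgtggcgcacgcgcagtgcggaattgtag
Yars (chr4:129189653-129189952, plus strand): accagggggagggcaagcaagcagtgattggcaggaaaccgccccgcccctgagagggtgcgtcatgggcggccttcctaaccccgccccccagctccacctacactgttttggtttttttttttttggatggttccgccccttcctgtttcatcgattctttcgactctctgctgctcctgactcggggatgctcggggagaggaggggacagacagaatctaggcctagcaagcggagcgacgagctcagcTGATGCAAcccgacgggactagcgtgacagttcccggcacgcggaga

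Aars, the alanyl enzyme, had 2 matches, which began 112 bases before and 9 bases after its start site. The matches in Gars and Tars, the threonyl enzyme, began 30 and 15 bases before the start, and those in Iars and Yars 7 and 3 bases after it. A match in this window is a description of sequence and not a measured binding site. The mRNAs of these 5 genes did not move together between groups. Aars had 274 and 325 CPM in control and 284 and 351 after Kap1 KD, a log2 difference of 0.09 ± 0.20 (SE). Gars had 754 and 719 against 751 and 635 (-0.09 ± 0.18), and Tars 269 and 227 against 247 and 211 (-0.12 ± 0.19). Yars had 73.4 and 92.2 against 86.6 and 103 (0.20 ± 0.21), and Iars was described above. None passed the test, which called 0% of tested genes.

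A list of 17 genes known as ATF4 targets or as its partners in the amino acid response was tested in full. It gave 0 calls in either direction between groups, beside 0% of tested genes. That test also missed Trim28, so the absence of calls does not show that these genes did not differ. The median log2 difference of the list was 0.02. Atf3, a stress-induced transcription factor, had the largest, at 14.8 and 17.7 CPM in control and 22.9 and 30.3 after Kap1 KD (log2 difference 0.71), and its groups did not overlap, as in 9.69% of tested genes. Phgdh, which opens the serine pathway, had 1310 and 2323 against 1560 and 2953 (0.31), and Chac1, a glutathione-degrading enzyme, 4.83 and 6.07 against 5.82 and 7.59 (0.30). Atf4 itself had 274 and 199 against 258 and 170.3. Between replicate numbers 1 gene of the list was called higher, Phgdh (log2 difference 0.87), and 2 lower, the lipoprotein receptor gene Vldlr (-1.52) and the stress-response gene Nupr1 (-0.68), beside 9.08% and 17.4% of tested genes.

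Partners of the synthetases, 13 genes tested, gave 0 calls in either direction between groups, again beside 0% of tested genes. Their median log2 difference was -0.00. Of the scaffold proteins of the multi-synthetase complex, Aimp2 had 79.6 and 137 CPM in control and 97.3 and 169 after Kap1 KD (0.29), while Aimp1 had 113 and 101 against 123 and 102 (0.07). The remaining scaffold gene, Eef1e1, had 106 and 91.2 against 113 and 98.4 (0.10). Sepsecs, which takes the last step from the seryl-tRNA that Sars supplies to selenocysteinyl-tRNA, had 14.4 and 8.30 against 11.2 and 6.61 (-0.35). Trnt1, which adds the CCA end that synthetases charge, had 50.3 and 26.4 against 43.9 and 22.5 (-0.21). Both were lower in the Kap1 KD sample of each pair and overlapped between groups. Between replicate numbers 1 of the 13, Aimp2, was called higher (0.79), beside 9.08% of tested genes, and 2, Trnt1 (-0.95) and Sepsecs (-0.78), lower, beside 17.4%. The glutamyl-tRNA amidotransferase genes Qrsl1 and Gatc, which complete mitochondrial glutaminyl-tRNA after Ears2, had fitted log2 differences of 0.05 and -0.03 between groups.

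A list of translation elongation genes likewise gave 0 calls between groups in 9 genes tested, beside 0% of tested genes. The median log2 difference was 0.12. The largest belonged to Eef2 (0.29), Eef1b2 (0.27) and Eef1g (0.24). Between replicate numbers 1 of the 9 was called higher, Eef2 (0.66), beside 9.08% of tested genes, and 0 lower, beside 17.4%, with Eef1g (0.52) and Tufm (0.46) next.

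The cognate tRNAs were measured in small RNA libraries with 1 library per group, so their values have no replicate check and no test. The tables list nuclear tRNAs and snoRNAs, and snoRNAs took 96.0% and 97.8% of the counts in control and Kap1 KD Hepa 1-6 cells and 98.5% and 99.4% in wild type and Kap1 KO hepatocytes. Log2 ratios were therefore set by the scaling. The totals were 26249204 and 29223566 counts in control and Kap1 KD Hepa 1-6 cells, and 3028467 and 11006899 in wild type and Kap1 KO hepatocytes. With TMM scaling, the median over the tRNA sequences of an amino acid was above 0 for 7 and below 0 for 13 of 20 amino acids in Hepa 1-6 cells. In hepatocytes it was above 0 for 4 and below 0 for 15 of 19. Scaling by the total count put all 20 and all 19 below 0. Selenocysteine tRNAs, left out of these counts, had TMM-scaled medians of 0.30 in Hepa 1-6 cells and 0.79 in hepatocytes. The tRNAs of leucine, the amino acid of Lars and Lars2, had a median log2 ratio of -0.62 over 29 sequences in Hepa 1-6 cells, phenylalanine had -0.66 from only 78 and 31 counts, and cysteine had the highest median, 0.70 over 3 sequences. The summed counts did not separate leucine from cysteine, since they fell from 33710 to 19347 for leucine and from 16514 to 9414 for cysteine. In hepatocytes leucine had -0.35, histidine 0.93 and proline 0.95, while glutamine, with 169 and 88 counts, had -1.59. The mRNA of the leucyl enzyme Lars was level in Hepa 1-6 cells, at 148 and 128 CPM in control and 149 and 129.9 after Kap1 KD.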

How the data were processed

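Polyadenylated RNA of Hepa 1-6 cells was measured in 2 control and 2 Kap1 KD libraries, and small RNA in 4 libraries. For mRNA-seq the authors aligned reads to mm9 with TopHat (2.0.11, 1 alignment per read) and deposited whole-number counts per gene from HTSeq (0.6.1). How strand was used in counting is not given in the sources used here. The table bears a small RNA name. For each listed tRNA and snoRNA, the deposited small RNA tables hold counts by the authors, and beside them a normalized signal that was not used. The hepatocyte libraries each have columns of identical values, counted once. The 22 columns that hold values of samples were each mapped to a sample, with 0 left over.

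Counts were tested with edgeR 4.0.16 in R 4.3.3 (filterByExpr, TMM, quasi-likelihood F test, Benjamini-Hochberg adjustment over 14142 genes) and a 1.5-fold threshold; DESeq2 1.42.0 was the alternative. The model without a replicate term was the main one. Levels are TMM-normalized CPM per kb of annotated exon or, added after the data were seen, of coding sequence (mm9 annotation, 21806 of 21915 identifiers matched). Log2 changes per pair used 0.1 added. Small RNA log2 ratios used TMM scaling, 0.5 added and sequences with at least 50 counts over the pair. BLAST 2.17.0 searched for copies. The scripts were tested on simulated counts that kept the difference between replicate numbers. There the fit with a replicate term called the changes that had been set, and the main fit, without one, did not. Alternatives covered the test, scaling, low-count filter, fold threshold, pseudocount, replicate block and leaving out each sample.

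The members and all gene lists were chosen with earlier results of these data known. The text names Trim28, the members, the 3 genes of each other list with the largest log2 difference between groups and between replicate numbers, the 5 genes most like Lars2, and genes that a count of 8 or a list description includes, chosen after their values were seen. Nothing states that replicates came from separate cultures, so p-values measure the spread between these samples, which may be technical. The other experiments of the study are not analysed here.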

Additional observations from a re-analysis of the deposited data

How the results depend on the processing

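Every alternative gave 0 members called between Kap1 KD and control except those with the replicate block or without a sample. The block gave 1 member (Lars2, which was chosen by that value), and 8 without the fold threshold, an alternative added after seeing the data: Farsa, Kars, Qars, Sars, Vars and Lars2 higher, beside 10.1% of tested genes, and Hars and Iars lower, beside 11.5%. Same-numbered samples deviated together (correlation 0.81 over tested genes, 0.92 over members without Lars2), but the labels state no shared batch, so they are taken to share a number and no more. Leaving out a sample gave 0 to 1 members, the 1 being Lars2, lost without Kap1 KD replicate 2; the lone sample is then assumed to vary like the other group. Of the other lists the block called Atf3 and Col1a1 higher, beside 2.06% of tested genes. It called 3 hepatocyte markers and Epcam lower, beside 2.4%. Without the fold threshold it called 4 elongation genes higher and 0 lower, and 1 synthetase partner higher and 2 lower. Of the ATF4 list 2 were then higher and 1 lower, and 6 hepatocyte markers were lower. Over all genes DESeq2 called 3, the block 631, the block with DESeq2 (added) 232, with 0 members, and leaving out a sample 3 to 65.

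Between replicate numbers, 2 members (Aars2 and Lars2) became 30 without the fold threshold and 1 (Aars2) with DESeq2. Leaving out a sample and the group term (added) gave 1 to 6 members, 6 without control replicate 2 (Qars, Vars, Aars2, Lars2, Rars2 and Sars2) and 1 without control replicate 1 or Kap1 KD replicate 2 (Aars2), and 1332 (without control replicate 1) to 4110 (without control replicate 2) genes in all beside 3748, with 2443 without Kap1 KD replicate 2. Median log2 changes ranged from -0.031 to 0.048 (cytosolic) and -0.0047 to 0.20 (mitochondrial) when a sample was left out. Trim28 passed the threshold with DESeq2 (-2.47), the block (-2.48), the block with DESeq2 (-2.48) and without any 1 sample (-2.71 to -2.27). Leaving out a sample moved the log2 difference of Vars from -0.11 to 0.56, of Ears2 from -0.042 to 0.45 and of Lars2 from -0.19 to 4.66, each lowest, with its sign reversed, without Kap1 KD replicate 2. That of Qars ranged from 0.061 to 0.55 and of Fars2 from 0.029 to 0.45, both also lowest without that sample. That of Rars2 went from -0.54 to 0.093, reversed without control replicate 1. The cause of these changes was not tested.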
